A study of Mus musculus with 12 samples.

Results

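Retnlg, Csf3r, Cxcr2, S100a8, S100a9, Mmp8, Mmp9, Lcn2 and Hp are 9 genes best known from neutrophils, taken here from 54115 annotated genes. They were chosen from these same libraries as genes with less RNA in eosinophils of fat than of blood, so their differences between fat and blood are described below without a test. The low-count filter kept 15367 genes, among them all 9. RNA had been measured in 12 libraries of sorted eosinophils from 5 mice, with 4 libraries for each tissue. The gonadal white adipose libraries came from mice 2846, 2807, 2683 and 2668, the subcutaneous white adipose libraries from mice 2846, 2807, 2771 and 2668, and the blood libraries from mice 2807, 2771, 2683 and 2668. Values per library are given in these orders of mice throughout. Every group consisted of male FVB/NJ mice that were wild-type, untreated, fed chow and aged 20 weeks. Cells were sorted as live CD45+ CD11b+ SiglecF+ cells. F4/80 was stained but is not part of the stated gate, and neither is Ly6G. Fat had been digested with collagenase type II for 45 min at 37 C. No digestion is stated for blood. In such bulk samples, fewer cells of a type and less RNA per cell cannot be told apart.

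Neutrophils and eosinophils are both granulocytes that mature in the bone marrow and circulate in blood. Neutrophils carry the G-CSF receptor, which drives their production, and CXCR2, which guides them towards CXC chemokines. They store proteases and metal-binding proteins in granules and hold the S100A8 and S100A9 proteins in the cytosol. Eosinophils also settle in healthy fat, where they are known as a source of cytokines that act on neighbouring macrophages.

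The label of the sorted cells was checked against its markers. Siglecf, for 1 of the sorted antigens, averaged 341 ± 138 CPM (read counts scaled to library size) in gonadal fat, 307 ± 142 CPM in subcutaneous fat and 273 ± 44.3 CPM in blood (SD, n = 4 each). The genes of the other sorted antigens stood lower in fat. Itgam (CD11b) averaged 986 ± 217, 920 ± 316 and 1905 ± 112 CPM in the same order. Ptprc (CD45) averaged 2120 ± 523, 2202 ± 591 and 3968 ± 338 CPM. The eotaxin receptor gene Ccr3 averaged 725 ± 245, 704 ± 340 and 1526 ± 127 CPM in the same order. Neutrophil markers other than Padi4 were scarce in fat. Ly6g, the neutrophil surface antigen, had 0 reads in all 8 adipose libraries and 50, 0, 4 and 12 reads in the blood libraries. The summed level of 10 neutrophil marker genes was 41.4 to 170 CPM in gonadal fat, 33.7 to 99.1 CPM in subcutaneous fat and 75.8 to 119 CPM in blood, and most of it was Padi4. Padi4 averaged 98.4 ± 54.2 CPM in gonadal fat, 59.5 ± 33.1 CPM in subcutaneous fat and 70.3 ± 17.5 CPM in blood (SD, n = 4 each). The other 9 markers summed to 1.73 to 3.8 CPM in gonadal fat, 0.991 to 3.59 CPM in subcutaneous fat and 15.9 to 25.8 CPM in blood. Their sum thus stood lower in fat, but Ltf among them did not, at means of 1.96, 1.54 and 1.53 CPM in that order. The blood level of these 9 came mostly from Ngp (11.2 ± 3.64 CPM), Cd177 (5.41 ± 1.80 CPM) and Stfa2l1 (2.42 ± 0.547 CPM; SD, n = 4 each). In gonadal fat 6 of the 10 were at 0 (Ly6g, Mpo, Elane, Camp, Stfa2l1 and Cxcr1), in subcutaneous fat 5 (the same without Mpo) and in blood Mpo.

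Library depth ran from 4379954 estimated reads in the subcutaneous library of mouse 2846 to 23734940. Mitochondrial ribosomal RNA took 28.1% of its reads and 4.66% to 8.79% elsewhere. The 7 adipocyte and stromal markers summed to 98.2 to 452 CPM in gonadal fat, 113 to 3359 CPM in subcutaneous fat, highest in that same library, and 0.695 to 9.38 CPM in blood. Markers of other cells moved with tissue. All 8 macrophage markers had reads in every group and summed to 872 to 3565 CPM in gonadal fat, 1084 to 4638 CPM in subcutaneous fat and 33.1 to 546 CPM in blood. The 9 monocyte markers summed to 1156 to 7562, 614 to 1979 and 468 to 2229 CPM in that order, and the 6 B cell markers to 29.1 to 93.9, 43.5 to 198 and 114 to 447 CPM. The 10 eosinophil markers summed to 1597 to 4303, 1362 to 4091 and 3783 to 4719 CPM. The part of these differences in the values below was not tested.

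Across the 9 genes, the median log2 fold change was -5.03 in gonadal fat over blood and -4.13 in subcutaneous fat over blood, beside 0.08 and 0.07 over all tested genes. Both comparisons share the blood libraries. All gonadal libraries lay below all blood libraries for 9 of 9 genes, and all subcutaneous libraries for 8, where this held for 17.7% and 15.7% of all tested genes. Both held for 8 of the 9, and for 11.8% of all tested genes. The exception was Mmp9. Its subcutaneous libraries overlapped with blood, so the description of these genes as lost in fat does not hold for Mmp9. Within the set, the log2 fold changes ran from -6.26 for S100a9 to -1.03 for Mmp9 in gonadal fat. In subcutaneous fat they ran from -5.26, a bound for Lcn2 without reads there, to -0.48 for Mmp9. With Lcn2 at its bound the subcutaneous median was again -4.13.

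**Figure D1:**
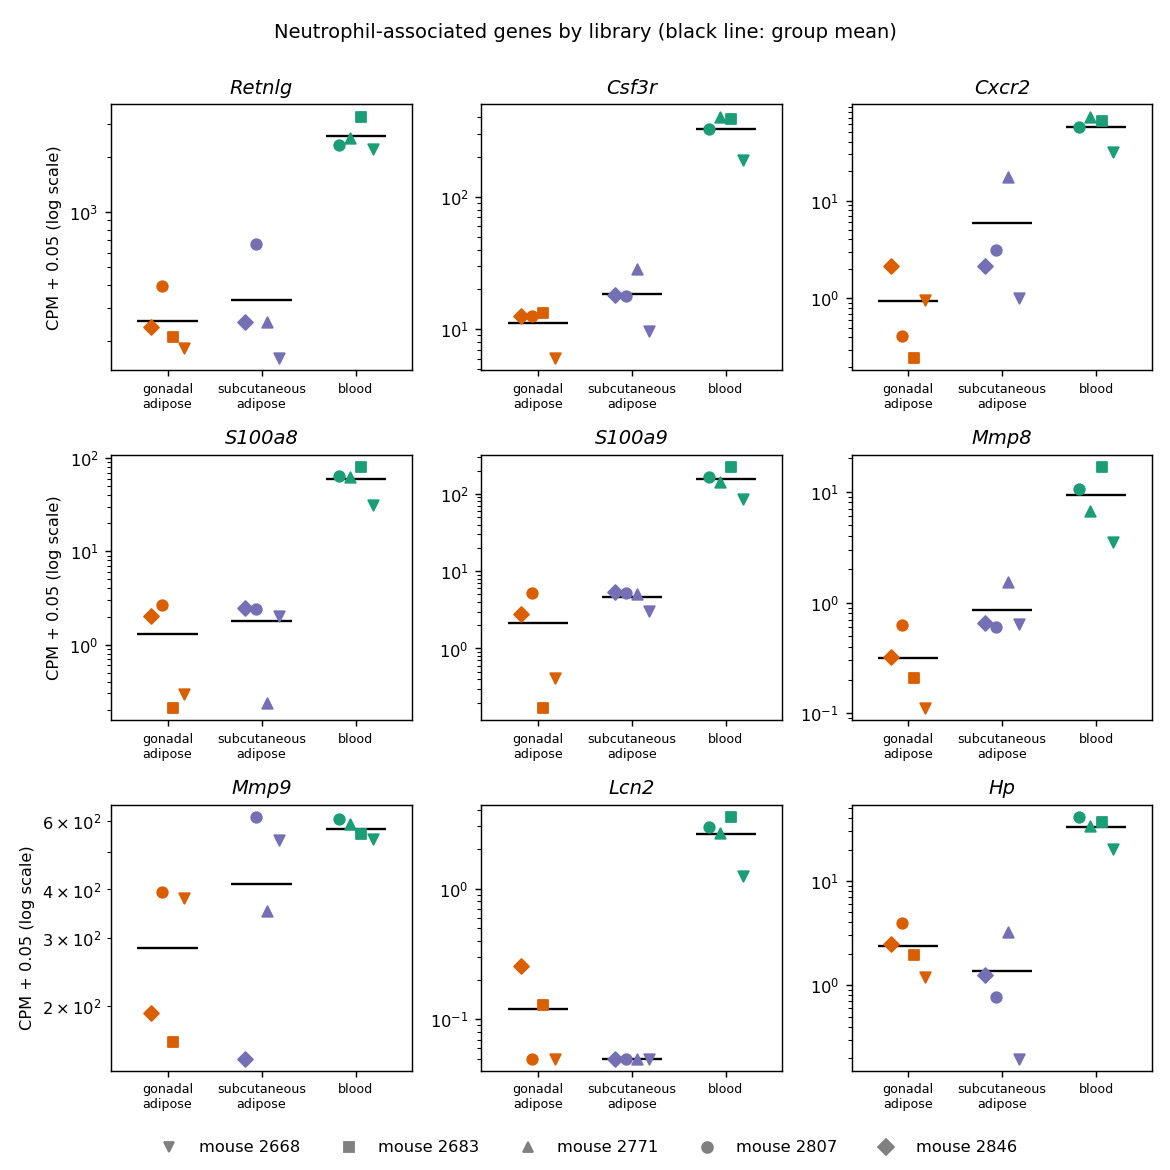
CPM plus 0.05 on a log axis for each of the 9 genes, by tissue; each point is a library, its shape gives the mouse, and the black line is the group mean. In 8 panels all adipose points lie below all blood points, while the subcutaneous Mmp9 libraries, at 146 to 615 CPM, overlap with the blood libraries at 539 to 610 CPM.

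The receptor genes come first. Csf3r encodes the receptor for G-CSF, the cytokine that drives neutrophil production (ENSMUSG00000028859, chromosome 4, 126024550 to 126044440, plus strand, in GRCm38). Its level was 12.5, 12.6, 13.2 and 6.03 CPM in gonadal fat and 18, 17.7, 28.6 and 9.71 CPM in subcutaneous fat, against 324, 403, 384 and 189 CPM in blood. The library of mouse 2668 was the lowest in each tissue, and adipose and blood did not overlap. The log2 fold change was -4.87 (SE 0.391) in gonadal fat and -4.13 (SE 0.379) in subcutaneous fat over blood. Within mice, Csf3r was 25.7-fold to 31.4-fold lower in gonadal fat than in blood of the same animal and 14.1-fold to 19.5-fold lower in subcutaneous fat. The gonadal range was the narrowest of the 8 genes with reads in all 3 mice that gave gonadal fat and blood.

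Most Csf3r reads in blood were assigned to a pair of protein-coding transcripts. Csf3r-202 held 29.9% of the gene's reads in gonadal fat and 24.3% in subcutaneous fat, against 46.7% in blood, and Csf3r-201 held 45.5%, 63.5% and 34.9% in that order. Single libraries ranged from 0% to 55.4% for Csf3r-202 in gonadal fat and from 0% to 83.3% in subcutaneous fat, against 34.4% to 52.7% in blood. The ranges overlapped, with 60 to 462 Csf3r reads per adipose library, and no difference in transcript use was tested.

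Cxcr2 encodes a receptor for CXC chemokines such as CXCL1 and CXCL2 (ENSMUSG00000026180, chromosome 1, 74153989 to 74161246, plus strand). Its level was 2.1, 0.36, 0.196 and 0.914 CPM in gonadal fat and 2.1, 3.09, 17.2 and 0.957 CPM in subcutaneous fat, against 56.6, 72.2, 65.7 and 31 CPM in blood. The subcutaneous library of mouse 2771 stood above all other adipose libraries but below the lowest blood library. The log2 fold change was -6.01 (SE 1.00) in gonadal fat and -6.89 without the gonadal library of mouse 2846. In subcutaneous fat it was -3.22 (SE 0.864), and -4.81 without the library of mouse 2771. That library also had the highest summed T and NK cell markers (189 CPM) and, among adipose libraries, B cell markers (198 CPM), whose part in the Cxcr2 value was not tested.

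The promoters of both receptor genes are shown because Csf3r and Cxcr2 kept the steadiest ratio to each other across blood libraries, as given with the blood values. They are RefSeq sequences of GRCm38.p6, 5′ to 3′ on the gene's strand, from the 250 bases before the start site with annotated exon bases removed. Csf3r lies at chr4:126024409-126024549, plus strand, and Cxcr2 at chr1:74153744-74153988, plus strand. Capitals mark matches, on either strand, to a C/EBP-type motif (TTNNGNAA, or TTNCNNAA in reverse) or to a PU.1 core (GAGGAA, or TTCCTC in reverse). C/EBP proteins and PU.1 are transcription factors of the granulocyte lineage.
Csf3r: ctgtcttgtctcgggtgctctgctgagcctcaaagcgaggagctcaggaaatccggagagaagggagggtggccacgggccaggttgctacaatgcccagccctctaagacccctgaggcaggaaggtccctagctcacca
Cxcr2: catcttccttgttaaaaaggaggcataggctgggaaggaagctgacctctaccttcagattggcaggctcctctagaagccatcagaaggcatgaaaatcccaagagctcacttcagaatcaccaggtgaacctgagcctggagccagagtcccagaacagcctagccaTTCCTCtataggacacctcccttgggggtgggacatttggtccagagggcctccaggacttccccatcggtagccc
The Csf3r window held neither motif, and the Cxcr2 window held 1 PU.1 core. Over 32851 promoter windows of 250 bases, 36.8% held the C/EBP-type motif and 23.3% the PU.1 core, so a match is a description and not a site.

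Retnlg, a secreted cysteine-rich protein of the resistin family, was the most abundant of the 9 genes per transcript length (ENSMUSG00000022651, chromosome 16, 48872621 to 48874496, plus strand). Its level was 237, 398, 210 and 183 CPM in gonadal fat and 252, 667, 254 and 161 CPM in subcutaneous fat, against 2317, 2508, 3298 and 2206 CPM in blood. Mouse 2807 was highest in both depots, but not in blood, and fat and blood did not overlap. The log2 fold change was -3.33 (SE 0.425) in gonadal fat. It was -2.95 (SE 0.418) in subcutaneous fat and -3.54 without the subcutaneous library of mouse 2807.

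Levels per transcript length (TPM) put the genes on 1 scale. Retnlg averaged 223 ± 93.2 TPM in gonadal fat, 291 ± 294 TPM in subcutaneous fat and 2079 ± 283 TPM in blood (SD, n = 4 each). Among 21805 protein-coding genes it ranked between 34 and 138 by TPM in gonadal libraries, between 15 and 165 in subcutaneous libraries and between 2 and 5 in blood libraries. It thus stayed among the abundant RNAs of the cells sorted from fat, at a lower level. Next in blood were S100a9 at 154 TPM, Mmp9 at 128 TPM, S100a8 at 67.4 TPM and Csf3r at 56 TPM, and the mean of Mmp9 fell within the spread of S100a9. The lowest blood means were those of Hp (10.1 TPM), Cxcr2 (6.79 TPM), Mmp8 (1.22 TPM) and Lcn2 (1.04 TPM), with Mmp8 and Lcn2 within their spread.

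Retnlg accounted for 65.5% to 82.6% of the summed TPM of the 9 genes in gonadal libraries, 54% to 83.3% in subcutaneous libraries and 80.9% to 86.3% in blood libraries. Mmp9 made up 13.9% to 33.7%, 11.8% to 42.7% and 3.43% to 5.87% in that order. The other 7 genes together made up 0.792% to 3.54% and 1.62% to 4.87% in the depots, against 7.83% to 13.7% in blood. Neither of the last 2 shares overlapped between fat and blood.

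S100a8 and S100a9 encode the calcium-binding proteins that pair as calprotectin, and their genes lie close together on chromosome 3 (ENSMUSG00000056054, 90668978 to 90670035, plus strand, and ENSMUSG00000056071, 90692632 to 90695721, minus strand). S100a8 stood at 1.97, 2.59, 0.157 and 0.244 CPM in gonadal fat and 2.4, 2.38, 0.186 and 1.99 CPM in subcutaneous fat, against 64.5, 62.8, 80.7 and 31.1 CPM in blood. S100a9 stood at 2.71, 5.19, 0.118 and 0.366 CPM in gonadal fat and 5.39, 5.15, 4.96 and 3.02 CPM in subcutaneous fat, against 166, 143, 223 and 86.2 CPM in blood. In gonadal fat both were high in mice 2846 and 2807 and low in mice 2683 and 2668. In the subcutaneous library of mouse 2771, S100a9 was near its group's mean while S100a8 was its group's lowest, with 80 and 3 reads. The S100a8 log2 fold change was -5.64 (SE 0.910) in gonadal fat and -5.18 (SE 0.905) in subcutaneous fat over blood, and that of S100a9 was -6.26 (SE 0.891) and -5.08 (SE 0.845). Without the gonadal library of mouse 2807 the gonadal values were -6.34 for S100a8 and -7.29 for S100a9.

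The windows before the start sites of Retnlg, S100a8 and S100a9 are shown. They are those of the gene most abundant per transcript length in the set and of a neighbouring pair. The windows lie at chr16:48872358-48872607, plus strand, chr3:90668821-90668977, plus strand, and chr3:90695722-90695971, minus strand, with capitals as above.
Retnlg: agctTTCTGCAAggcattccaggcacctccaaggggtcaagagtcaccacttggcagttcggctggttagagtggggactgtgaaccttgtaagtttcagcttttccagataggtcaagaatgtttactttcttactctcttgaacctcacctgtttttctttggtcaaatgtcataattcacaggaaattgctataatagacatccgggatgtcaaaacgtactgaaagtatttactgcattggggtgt
S100a8: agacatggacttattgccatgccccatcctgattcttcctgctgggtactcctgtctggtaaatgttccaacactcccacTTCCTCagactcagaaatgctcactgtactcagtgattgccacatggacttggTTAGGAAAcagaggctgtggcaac
S100a9: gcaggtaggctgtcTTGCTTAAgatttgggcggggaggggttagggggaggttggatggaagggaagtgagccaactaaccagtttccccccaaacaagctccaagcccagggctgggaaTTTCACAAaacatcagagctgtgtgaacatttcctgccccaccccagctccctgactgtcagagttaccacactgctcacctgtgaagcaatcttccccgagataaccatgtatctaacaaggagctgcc
The Retnlg window held 1 C/EBP-type match, the S100a9 window 2, and the shorter S100a8 window 1 of each motif. The window of Mmp8 held 2 C/EBP-type matches and 1 PU.1 core. RefSeq entries were found for 7 of the 9 genes, and the window of Lcn2 had no base left outside annotated exons. Of the 6 windows with sequence, which differ in length, 4 held the C/EBP-type motif and 3 the PU.1 core.

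The proteases parted ways. Mmp8, neutrophil collagenase (ENSMUSG00000005800, chromosome 9, 7558456 to 7568485, plus strand), had 4, 8, 4 and 1 reads in gonadal fat and 2, 7, 24 and 8 reads in subcutaneous fat, against 178, 142, 319 and 70 reads in blood. Its level was 0.266 ± 0.224 CPM in gonadal fat, 0.807 ± 0.453 CPM in subcutaneous fat and 9.35 ± 5.70 CPM in blood (SD, n = 4 each). The highest adipose library, subcutaneous of mouse 2771 at 1.49 CPM, lay below the lowest blood library at 3.47 CPM. The log2 fold change was -5.13 (SE 0.756) in gonadal fat and -3.48 (SE 0.697) in subcutaneous fat. Without the gonadal library of mouse 2807 the gonadal value was -5.82.

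Mmp9, gelatinase B, a protease that cleaves denatured and basement membrane collagen, lies on chromosome 2 (ENSMUSG00000017737, 164940780 to 164955850, plus strand). Its level was 192, 393, 161 and 381 CPM in gonadal fat and 146, 615, 352 and 537 CPM in subcutaneous fat, against 610, 592, 556 and 539 CPM in blood. All gonadal libraries lay below blood, but the subcutaneous library of mouse 2807 was the highest of the 12. The log2 fold change was -1.03 (SE 0.394) in gonadal fat and -0.48 (SE 0.391) in subcutaneous fat. Within mice, Mmp9 was 1.41-fold to 3.45-fold lower in gonadal fat than in blood. In subcutaneous fat it was 1.68-fold lower in mouse 2771 and within 0.01 of the blood level on the log2 scale in mice 2668 and 2807. The main protein-coding transcript, Mmp9-201, held 93.8% of Mmp9 reads in gonadal fat, 93.3% in subcutaneous fat and 90.8% in blood.

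Lcn2 and Hp encode carriers of iron and haem. Lcn2, which binds iron-loaded siderophores (ENSMUSG00000026822, chromosome 2, 32384633 to 32388252, minus strand), had 3, 0, 2 and 0 reads in gonadal fat and 0 reads in every subcutaneous library, against 49, 56, 66 and 24 reads in blood. Its level was thus 35.5-fold lower in gonadal fat than in blood by pooled reads, and at least 38.4-fold lower in subcutaneous fat, taking a floor of 3 counts over the group. The fitted gonadal log2 fold change was -5.03 (SE 1.16), and -6.07 without the gonadal library of mouse 2846, which held 3 of the 5 reads.

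Hp, haptoglobin, which binds free haemoglobin, lies on chromosome 8 (ENSMUSG00000031722, 109575128 to 109579172, minus strand). Its level was 2.44, 3.89, 1.88 and 1.16 CPM in gonadal fat and 1.2, 0.713, 3.22 and 0.147 CPM in subcutaneous fat, against 40.8, 33.3, 36.5 and 20.3 CPM in blood. The highest adipose library lay more than 5-fold below the lowest blood library. The log2 fold change was -3.81 (SE 0.656) in gonadal fat and -4.59 (SE 0.697) in subcutaneous fat, and the subcutaneous value was -5.84 without the library of mouse 2771. Haemoglobin and other erythroid markers reached 8353 CPM in the blood library of mouse 2771, while Hp there, at 33.3 CPM, was close to its blood mean of 32.7 CPM.

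**Figure D2:**
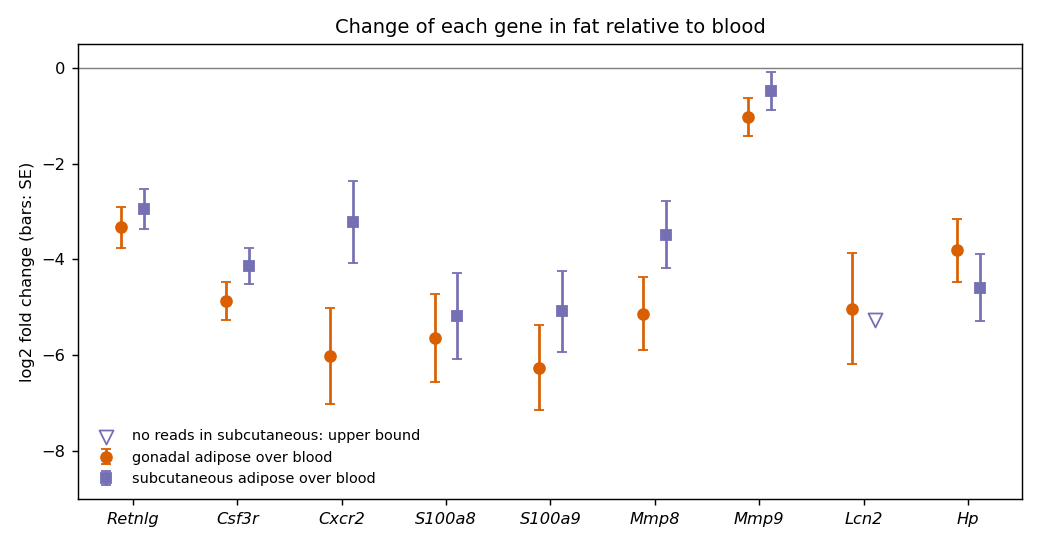
Log2 fold change over blood (y axis) of each gene in gonadal (circles) and subcutaneous (squares) fat, with SE bars; the open triangle is the bound for Lcn2, which had no reads in subcutaneous fat. Mmp9 stands near 0, at -1.03 and -0.48, and the other genes lie between -6.26 and -2.95.

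The contrast between the fat depots did not enter the choice of the genes and could be tested. Of the 9 genes, 0 passed an adjusted p of 0.05 in edgeR's quasi-likelihood test, in which 0.00651% of all genes tested (1 of 15367) passed. At an unadjusted p under 0.05 there were 2, where 8.03% of all genes lay under it. The median log2 fold change of the 9 genes in gonadal over subcutaneous fat was -0.55, against -0.01 over all genes. The means of 7 genes were lower in gonadal fat and those of Lcn2 and Hp were higher, but the libraries of both depots overlapped for every gene. Over all genes, 1.69% had every gonadal library below every subcutaneous one.

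Cxcr2 had the lowest p of the 9, with a log2 fold change of -2.79 (SE 0.909) in gonadal over subcutaneous fat and an edgeR adjusted p of 0.479. With mouse 2771 left out of subcutaneous fat the value was -1.23, and with mouse 2846 left out of gonadal fat it was -3.64. DESeq2 called Cxcr2 alone among the 9 (-2.75, adjusted p = 0.0477), with adjusted p from 0.0477 to 0.964 over all alternatives. The gene was lower in gonadal fat by 8.58-fold in mouse 2807, and by 1.05-fold in mouse 2668, and the ratio was 0.996 in mouse 2846. Mmp8 differed by -1.65 (SE 0.708, edgeR adjusted p = 0.582) and Csf3r by -0.74 (SE 0.343, edgeR adjusted p = 0.619), with Csf3r 1.41-fold to 1.61-fold lower in gonadal fat in all 3 mice that gave both depots. Hp went the other way at 0.78 (SE 0.642, edgeR adjusted p = 0.806) and was higher in gonadal fat in those 3 mice. Its value was 2.0 without the subcutaneous library of mouse 2771. The log2 differences of Retnlg (-0.38), S100a8 (-0.46), S100a9 (-1.18) and Mmp9 (-0.55) had edgeR adjusted p of 0.848, 0.924, 0.748 and 0.767. Leaving out the gonadal library of mouse 2807 gave -2.31 for Mmp8, -1.14 for S100a8 and -2.18 for S100a9, and leaving out the subcutaneous library of mouse 2807 turned Retnlg to 0.22. Lcn2, with 5 reads in gonadal fat and 0 in subcutaneous fat, had an adjusted p of 0.653.

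A fixed ratio among these genes would keep their reads per Retnlg read the same in every tissue. The ratio lay below all blood libraries for 5 of 8 genes in gonadal fat (Csf3r, Cxcr2, S100a8, S100a9 and Mmp8) and for 3 in subcutaneous fat (S100a8, S100a9 and Lcn2, the last without reads). It overlapped with blood for Lcn2 and Hp in gonadal fat and for Csf3r, Cxcr2, Mmp8 and Hp in subcutaneous fat, and lay above blood for Mmp9 in both. No share over all genes is given for these counts, which are a description of the set only. Per 100 Retnlg reads there were 4.58 Csf3r reads in gonadal fat, 5.65 in subcutaneous fat and 12.6 in blood. For S100a9 these values were 0.697, 1.31 and 5.93, for S100a8 0.42, 0.437 and 2.3, and for Cxcr2 0.322, 2.17 and 2.19. The Cxcr2 ratio in subcutaneous fat was thus close to that in blood when pooled, but 278 of its 337 reads came from mouse 2771. Hp stood at 0.904, 0.431 and 1.25 reads per 100 Retnlg reads, and Mmp8 at 0.0979, 0.264 and 0.355. The subcutaneous mean of the log2 ratio of Mmp8 differed from blood by -0.17, within the blood SD of 0.775. For Lcn2 the pooled values were 0.0288, 0 and 0.0976.

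Mmp9 went against the rest, with 107 reads per 100 Retnlg reads in gonadal fat, 136 in subcutaneous fat and 22.2 in blood. Its ratio was 57.9 or more in every adipose library and 26.3 or less in every blood library. The sum of the 8 genes other than Retnlg stood at 114, 147 and 46.9 reads per 100 Retnlg reads. Mmp9 held most of these reads in both depots, but not in blood, and the sum was higher in fat as Mmp9 was. On the log2 scale this ratio was higher in fat than in blood by 1.28 in gonadal and 1.56 in subcutaneous fat. Without Mmp9 the direction turned, to -1.82 and -1.21. The remaining 7 genes had 7.05 reads per 100 Retnlg reads in gonadal fat, 10.3 in subcutaneous fat and 24.7 in blood.

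**Figure D3:**
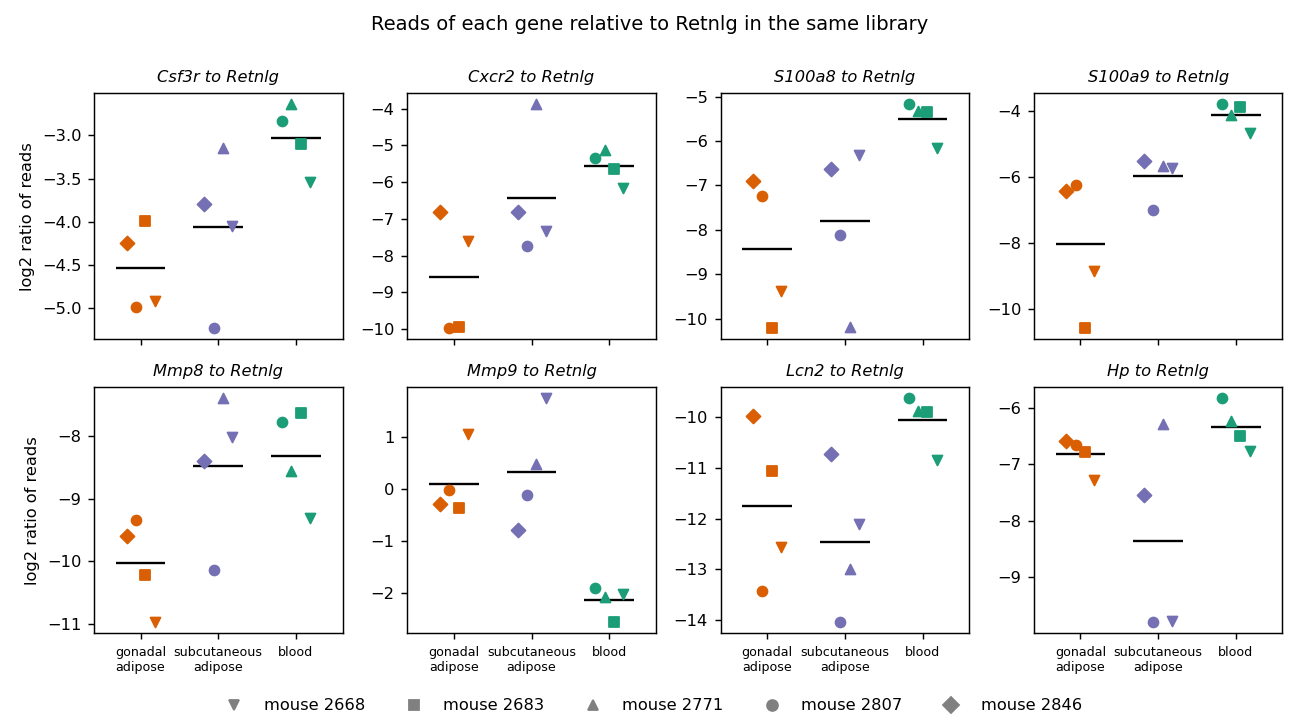
Log2 ratio of the reads of each gene to those of Retnlg in the same library, with 0.5 added to both; shapes give the mouse, black lines the group means. The Mmp9 ratio is higher in all adipose libraries than in blood, while the mean ratios of the other 7 genes are lower in both depots; the subcutaneous Lcn2 points rest on 0 reads and differ only by the Retnlg count.

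Between the depots the ratio could be tested. The log2 ratio of the 8 other genes to Retnlg was 0.19 ± 0.613 in gonadal fat and 0.47 ± 1.00 in subcutaneous fat (SD, n = 4 each), a difference of -0.28 (two-sided exact permutation test over 70 splits, p = 0.657, adjusted over 2 ratios 0.657). For Csf3r alone the ratio was -4.53 ± 0.491 in gonadal and -4.06 ± 0.869 in subcutaneous fat, a difference of -0.48 (exact p = 0.429, adjusted 0.657). Mmp9 held most reads of the sum of 8 genes, so that comparison is mainly one of Mmp9 to Retnlg. Without Mmp9 the log2 ratio was -3.88 ± 0.406 in gonadal and -3.26 ± 0.948 in subcutaneous fat (SD, n = 4 each). The difference of -0.61 had an exact permutation p of 0.286, not adjusted, and was examined after seeing the data. The smallest p that 4 against 4 libraries can give is 0.0286. A p above the threshold does not show that the ratios are equal.

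In blood, where counts were high, the genes could be followed from mouse to mouse. Mouse 2668 had the lowest level of all 9 genes in blood. Relative to the mean of the 4 blood libraries it stood at 37.1% for Mmp8, 46.8% for Lcn2, 52% for S100a8, 54.9% for Cxcr2, 55.7% for S100a9, 58.3% for Csf3r and 62.2% for Hp. Retnlg and Mmp9 moved less, at 85.4% and 93.9%. Between the highest and the lowest blood library Mmp9 differed 1.13-fold, Retnlg 1.49-fold and Mmp8 4.81-fold. In that library the monocyte and macrophage sums, at 468 and 33.1 CPM, were the lowest of the blood libraries, and Padi4, at 96.2 CPM, was the highest. The other 9 neutrophil markers summed to 22.7 CPM there, within the 15.9 to 25.8 CPM of the blood libraries. Their part in the low values was not tested.

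**Figure D4:**
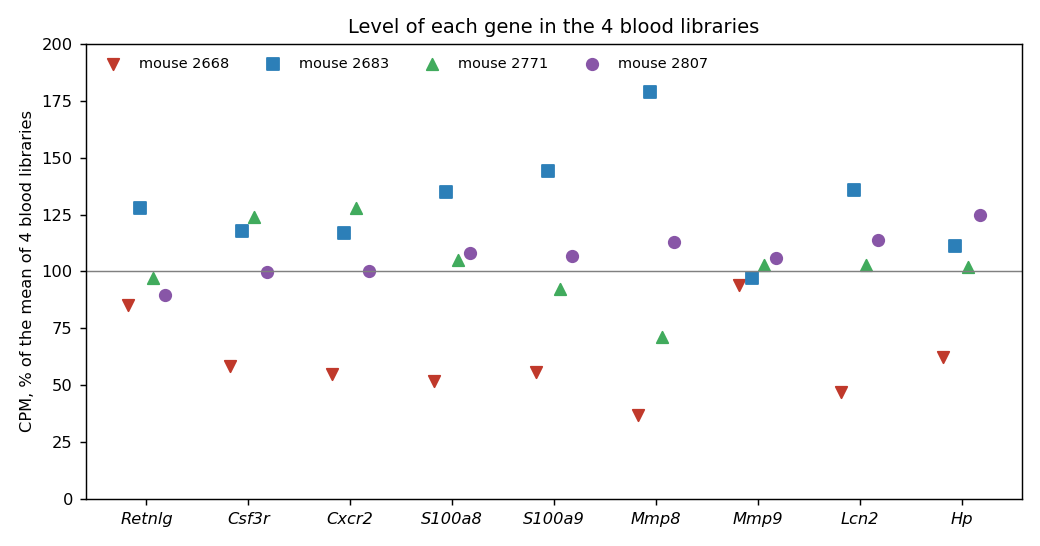
Level of each gene in the 4 blood libraries as a percentage of its blood mean (grey line at 100); shapes and colours give the mouse. Mouse 2668 is lowest for every gene, at 37.1% to 62.2% for 7 of them but at 85.4% for Retnlg and 93.9% for Mmp9.

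Some pairs held a nearly constant ratio across the blood libraries. The log2 ratio of Csf3r to Cxcr2 had an SD of 0.0571 over 4 libraries, against 0.05 expected from counting alone. For S100a8 to S100a9 the SD was 0.133, against 0.053 from counting, and for S100a8 to Lcn2 it was 0.0987, below the 0.227 from counting. Over the 21 pairs among the 7 genes other than Retnlg and Mmp9 the median SD was 0.283, with a range of 0.0571 to 0.669. Over the 14 pairs that join 1 of these 7 to Retnlg or Mmp9 it was 0.479, with a range of 0.383 to 0.942. This grouping was made after the values were seen and is a description.

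In fat the ratios of these pairs were compared by pooled reads. The log2 ratio of Csf3r to Cxcr2 shifted from its blood value by 1.3 in gonadal fat and by -1.15 in subcutaneous fat. The subcutaneous shift rested on the library of mouse 2771 and was 0.29 without it. That of S100a8 to S100a9 shifted by 0.64 in gonadal fat and by -0.22 in subcutaneous fat, on 68 and 204 subcutaneous reads, and by 0.44 there without mouse 2771. For S100a8 to Lcn2 the gonadal shift was -0.69 on 5 Lcn2 reads, and subcutaneous fat had no Lcn2 reads. Over the 21 pairs among the 7 genes the absolute shift in gonadal fat ran from 0.0968 to 2.62, with a median of 0.992. Over the 15 pairs without Lcn2 it ran from 0.217 to 2.38 in subcutaneous fat, with a median of 1.11, and from 0.0686 to 2.0 without mouse 2771, with a median of 0.76. Many of these adipose sums rest on few reads, 5 to 157 per depot for Cxcr2, Mmp8, Lcn2 and Hp in gonadal fat.

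Genes with the most constant ratio to Retnlg over the 12 libraries were sought among 6126 protein-coding genes. The nearest were Atp23, Mtus1, Itgal, Il16 and Unc5c, with an SD of the log2 ratio of 0.462 to 0.518, against 1.70 for Retnlg itself. Itgal, the alpha chain of the integrin LFA-1, averaged 110 ± 30.9 CPM in gonadal fat, 195 ± 78.9 CPM in subcutaneous fat and 834 ± 53.8 CPM in blood (SD, n = 4 each). None of the other 8 genes followed Retnlg as closely, with SDs of 0.856 for Csf3r to 1.83 for S100a9. Nearest to Csf3r were Gpr18, Slc44a2, E2f2, Gpr141 and Ear10 at 0.746 to 0.946, against 2.30 for Csf3r itself, and Mmp8 of the set was nearer at 0.650. The sum of the 7 genes other than Retnlg and Csf3r consisted mostly of Mmp9 reads. It was followed most closely by Tmem71, Pithd1, Oit3, Itgb3 and Limd2 at 0.274 to 0.338, against 0.958 for the sum itself.

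Of 89 related genes of neutrophils and of the pathways of these 9, 67 were tested in edgeR. In gonadal fat over blood 19 were higher and 22 lower (28.4% and 32.8%), where 15.4% and 11.6% of all genes were. In subcutaneous fat over blood 16 were higher and 18 lower (23.9% and 26.9%), where 15.4% and 11.4% of all genes were. The lists were chosen with earlier results of these data known, so these shares are a description and no independent support. The median log2 fold changes of the related genes were -0.41 and -0.55, beside 0.08 and 0.07 over all genes. The gonadal count of higher genes was 10, 12 and 9 when mouse 2771, 2683 or 2668 was left out of blood, and 12 when mouse 2683 was left out of gonadal fat. Between the depots 0 of 67 passed in edgeR, with 12 at an unadjusted p under 0.05, and DESeq2 called 3 (Mmp12 higher, Il1r2 and Retnla lower in gonadal fat).

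**Figure D5:**
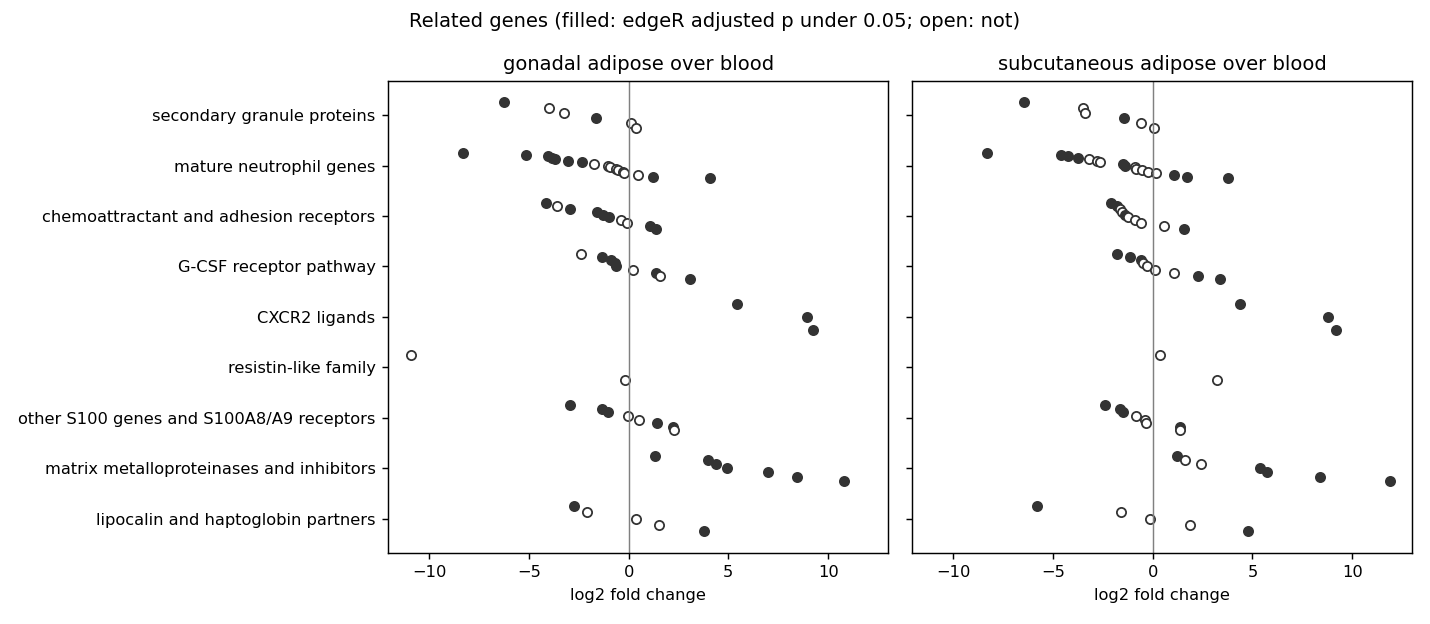
Log2 fold change over blood (x axis) of 67 tested related genes by list (rows), in gonadal (left) and subcutaneous (right) fat; filled points have an edgeR adjusted p under 0.05. All 3 tested CXCR2 ligand genes lie far to the right in both depots, and Ngp, the leftmost secondary granule gene, lies at -6.26 and -6.48; Mmp2, rightmost in both panels, and Retnla, leftmost in gonadal fat, had a group without reads, so their places are fitted values and no bounds.

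Changes of related genes are given as log2 fold changes over blood for gonadal and then subcutaneous fat. Counts by list include calls that ended under an alternative, whose genes the closing section names. They stand beside the shares over all genes given above. Granule genes beyond Mmp8, Lcn2 and Hp were mostly scarce. None of 5 primary granule genes had enough reads to be tested, with 0 and 1 reads for Mpo in gonadal and subcutaneous fat and 0 in blood. Of 6 tested secondary granule genes, 2 fell in each depot and none rose. Ngp, a granule protein of the cathelicidin family, had 11 and 5 reads in gonadal and subcutaneous fat and 861 reads in blood, and its log2 fold change was -6.26 (SE 1.05, adjusted p = 0.00117) and -6.48 (SE 1.12, adjusted p = 0.00159). It was -7.28 without the gonadal library of mouse 2683 and -7.98 without the subcutaneous library of mouse 2668. The low-count filter kept Ngp for its blood reads, so its fall is no separate support. Pglyrp1, which binds bacterial peptidoglycan, fell by 1.64 and 1.45. Lactoferrin, Ltf, stood at 1.96 ± 0.463 CPM in gonadal fat, 1.54 ± 0.890 CPM in subcutaneous fat and 1.53 ± 1.16 CPM in blood (SD, n = 4 each). Camp had 0 reads in both depots and 14 in blood.

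Of 17 tested genes of mature neutrophils, 2 rose and 7 fell in gonadal fat, and 3 rose and 6 fell in subcutaneous fat. Among those that fell, Arg2, Asprv1, Lrg1, Stfa2l1 and Trem3 averaged 0.998 CPM or less in both depots. The low-count filter kept these for their blood reads, so their shared direction is no separate support. Il1f9 averaged 0.856 CPM in gonadal fat, 0.489 CPM in subcutaneous fat and 6.98 CPM in blood. Clec4e, a C-type lectin receptor, rose by 4.07 and 3.79 (adjusted p = 5.14e-05 and 8.19e-05). Lrg1 fell by 3.71 in gonadal fat (adjusted p = 0.0146), its log2 fold change being -4.47 with mouse as a block, and Il1f9 fell by 3.76 in subcutaneous fat (adjusted p = 0.00232).

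Around the receptors, 3 of 6 listed CXCR2 ligand genes were tested, and these rose in both depots, opposite to Cxcr2. Cxcl1, Cxcl2 and Cxcl3 averaged 0.183, 0.702 and 0.153 CPM in blood. The low-count filter thus kept them for their adipose reads, so their shared direction is no separate support. Ppbp, which was not tested, averaged 0.321 CPM in gonadal fat, 0.151 CPM in subcutaneous fat and 1.21 CPM in blood. Cxcl2 had a log2 fold change of 9.24 (SE 0.322, adjusted p = 6.71e-09) in gonadal and 9.19 (SE 0.322, adjusted p = 7.01e-09) in subcutaneous fat, and Cxcl1 8.96 and 8.78. Leaving mouse 2668 out of blood gave 10 and 9.82 for Cxcl1, and leaving mouse 2683 out of gonadal fat gave 8.36. Of 10 tested chemoattractant and adhesion receptors, 2 rose and 5 fell in gonadal fat, and 1 rose and 3 fell in subcutaneous fat. Itgal fell by 2.92 and 2.09, and Selplg, the selectin ligand PSGL-1, fell by 1.61 and 1.78.

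Of 9 tested genes of the G-CSF receptor pathway, 2 rose and 4 fell in gonadal fat, and 2 rose and 3 fell in subcutaneous fat. Cebpb, a transcription factor of emergency granulopoiesis, rose by 3.09 and 3.38 (adjusted p = 1.36e-05 and 7.36e-06). Cebpe, which drives granule genes in both granulocyte lineages, fell by 1.32 and 1.80 (adjusted p = 0.0128 and 0.00281).

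Of 8 tested S100 genes and receptors of S100A8 and S100A9, 2 rose and 3 fell in gonadal fat, and 1 rose and 3 fell in subcutaneous fat. In gonadal fat S100a1 rose by 2.20 (adjusted p = 0.0113), and the receptor gene Ager fell by 2.96 (adjusted p = 0.0107). S100a11 fell by 1.34 in gonadal and S100a10 fell by 1.65 in subcutaneous fat. All 7 tested metalloproteinase and inhibitor genes rose in gonadal fat and 5 of 7 in subcutaneous fat, unlike Mmp8 and Mmp9. Of them, Mmp2, Mmp13, Mmp14 and Timp3 averaged 0.475 CPM or less in blood. Mmp12 and Mmp19 averaged 0.868 and 3.74 CPM there, with as few as 1 and 3 reads in a blood library. All of these except Timp2 passed the low-count filter for their adipose reads, so their shared direction is no separate support. Mmp12, macrophage elastase, rose by 8.45 in gonadal fat (adjusted p = 0.000842), and the change was 9.24 with mouse 2807 left out of blood and 7.26 with mouse 2683 left out of gonadal fat. Mmp2, with 1066 reads in gonadal fat, 793 in subcutaneous fat and 0 in blood, was at least 390-fold and at least 448-fold higher, and its adjusted p was 0.0602 and 0.0634 with mouse as a block. The macrophage and stromal marker sums, given above by tissue, were also higher in fat, and their part was not tested. Of 5 tested partners of lipocalin and haptoglobin, 1 rose and 1 fell in each depot (20% each way). The rise ended under at least 1 alternative in both depots. The ferroportin gene Slc40a1 fell by 2.73 in gonadal fat, where it fell by 3.50 without the library of mouse 2807.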

How the data were processed

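The 12 libraries held RNA of eosinophils sorted from 5 mice. Per the labels' protocols, RNA was extracted with a single cell kit (Norgen), and libraries were made with a stranded total RNA kit for pico input. The submitters' processing notes name mm10, Salmon 1.6.0, Trim Galore 0.6.4 and DESeq2 1.30.1. Per the file headers, the deposited tables give expected counts (estimated reads) and TPM for 140992 transcripts. Neither annotation release nor strand setting is given in the sources used here. A gene and an antisense partner may therefore share reads.

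Transcripts were matched to GENCODE M21 of GRCm38, ignoring versions. Of them 139791 matched, and the 1201 others, with 0.351% to 0.538% of a library's reads, were left out. Per gene, the authors' expected counts were added up and rounded to whole numbers, and the deposited TPM were summed likewise. The 12 libraries entered 1 edgeR 4.0.16 fit in R 4.3.3 (robust quasi-likelihood test, TMM, filterByExpr by group), with group as the only term. Calls had a Benjamini-Hochberg adjusted p under 0.05 over 15367 genes. The common coefficient of biological variation was 0.545. The SE is the log2 fold change divided by the square root of F. CPM use TMM-scaled library sizes. Depth ran from 4379954 to 23734940 estimated reads, and the shallowest library is the least precise. Floors are 3 counts over a group and cover counting error only. Reads are PCR products without molecular identifiers that the labels name. Ratios were formed with 0.5 reads added, and depots compared by an exact permutation test over libraries. The fits were tested on simulated data.

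The members and all gene lists were chosen with earlier results of these data known. Named genes are the 9 members, certain marker genes and, of each related list, up to 2 called genes per direction and comparison with the largest change and at least 5 CPM in the higher group. Of those calls, the ones that ended under an alternative are, except for Mmp2, given in the closing section only. Genes of constant ratio were ranked by the SD of the log2 CPM ratio (prior count 2) among protein-coding genes of at least 20 CPM in 1 group, leaving out predicted genes.

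Per the labels, a mouse number stands for 1 animal, and this pairs its libraries. Deviations from the group means correlated at -0.111 to 0.358 over 9 same-mouse pairs (mean 0.0842), against a mean of -0.0188 over 39 pairs of different mice. The fit without mouse is the one reported. Alternatives were RLE size factors, no filter, DESeq2 1.42.0, limma 3.58.1 (voom with sample weights), mouse as a block, each library left out in turn, and leaving out mouse 2846 in subcutaneous fat together with mouse 2807 in blood. For ratios they were TPM and a pseudocount of 1. Pooled pair ratios without the subcutaneous library of mouse 2771 were added after seeing the data. Promoter windows come from RefSeq (GRCm38.p6). The labels give no batch.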

Additional observations from a re-analysis of the deposited data

Results flagged for a closer look

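In a group of 4 libraries, a value was picked out where its gap to the nearest other library exceeded Dixon's critical share of the group's range. Of 33 groups examined for the 9 genes and their ratios, 3 met this, and chance gives about 1 in 20. Csf3r in the gonadal library of mouse 2668, at 6.03 CPM, lay below the other gonadal libraries (12.5 to 13.2 CPM). Mouse 2668 was also the lowest for Csf3r in subcutaneous fat and in blood. Cxcr2 in the subcutaneous library of mouse 2771, at 17.2 CPM, lay above the other subcutaneous libraries (0.957 to 3.09 CPM). Mmp8 in that same library, at 1.49 CPM, lay above the others (0.555 to 0.599 CPM) and rests on 24 reads. Csf3r and Hp were also highest there among subcutaneous libraries, at 28.6 and 3.22 CPM, while S100a8 was lowest at 0.186 CPM.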

How the results depend on the processing

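Of the members, 0 were called between depots in every edgeR and voom setting, including each leave-one-out fit (0 to 0), and DESeq2 called 1. Related genes called between depots numbered 1 higher (Mmp12, 6.10) and 2 lower (Il1r2, -2.0, and Retnla, with 0 gonadal reads) in DESeq2, which called 152 genes in all against 1 in edgeR. Related genes higher in gonadal fat than blood numbered 9 to 19 over leave-one-out fits. Of 45 calls that the naming rule took, 14, on 11 genes, ended under at least 1 alternative. These were Mxd1, Asprv1, Cxcr4, C5ar1, Socs3 and Spi1 in gonadal fat, Il1r2 and Ager in subcutaneous fat, and Tlr4, Mmp2 and Cd163 in both. The subcutaneous calls of Asprv1 (log2 fold change over blood -4.27), Cxcr4 (1.59), Socs3 (2.28) and Spi1 (-1.15) did not end. Neither did the gonadal call of Ager (-2.96). The Socs3 value moved to 1.68 with voom. The members' median log2 fold change kept its direction, from -5.29 to -4.67 in gonadal and -4.76 to -3.90 in subcutaneous fat over leave-one-out fits. The log2 ratio of the 8 genes to Retnlg over blood ranged from 0.98 to 1.43 in gonadal and 1.12 to 1.89 in subcutaneous fat over the same fits, was 0.44 in gonadal fat with TPM, and was -1.82 and -1.21 without Mmp9, an alternative chosen after seeing the data. Between depots it ranged from -0.61 to 0.16, turning without the subcutaneous library of mouse 2668. The Retnlg difference between depots ranged from -0.67 to 0.22, turning without the subcutaneous library of mouse 2807. The pooled subcutaneous shifts of Csf3r to Cxcr2 and of S100a8 to S100a9 turned to 0.29 and 0.44 without the library of mouse 2771, also chosen after seeing the data. Except where Mmp9 was removed, the cause was not tested. With mouse as a replicate block, 14 related genes were higher and 18 lower in gonadal fat, and 12 and 19 in subcutaneous fat, 0 members were called between depots, and within-mouse ratios were 1.45 and 1.83 over blood and -0.06 between depots. Depth limits genes of few reads, such as Lcn2 and Mmp8 in fat.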
